A study of Mus musculus with 6 samples.

Results

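The Cyp2c family of cytochrome P450 enzymes was measured in mouse liver with 9 probe sets, 1 for each of 9 genes, out of 45037 probe sets on the array. The members were taken by symbol from a list of 10 Cyp2c genes, keeping every probe set annotated to exactly 1 of those symbols. Cyp2c44 was found under its current RefSeq symbol, Cyp2c23, and no probe set of the table carried the symbol Cyp2c40, which was not analysed here. Liver was taken from 3 mutant mice of genotype B6.Alb/cre,Pdss2loxP/loxP, in which the albumin promoter drives cre in hepatocytes, and from 3 B6.Pdss2loxP/loxP mice without cre that served as controls. Both groups therefore carry the floxed Pdss2 allele, and neither is an unmodified B6 mouse. The mutants, all labelled male, were 176, 178 and 224 days old (mutants 1, 2 and 3), and the controls, also labelled male, were 209, 213 and 140 days old (controls 1, 2 and 3). The genotypes were housed in different cages, food was withheld for 3 hours before death, and RNA of each liver was hybridized to 1 array. The comparison asks how liver transcripts differ when hepatocytes lose Pdss2, a subunit of the synthase that makes the isoprenoid tail of coenzyme Q, the electron carrier of the mitochondrial respiratory chain.

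Cyp2c enzymes are haem monooxygenases of the endoplasmic reticulum that receive electrons from P450 reductase and cytochrome b5. In liver they oxidize drugs, steroids, retinoids and bile acids, and several convert arachidonic acid into epoxides or hydroxylated fatty acids. Most of their genes lie side by side on mouse chromosome 19, with Cyp2c44 further along it, and the genes arose by duplication. Nuclear receptors that sense foreign compounds, together with HNF4 and forkhead factors, are known regulators of the family in hepatocytes.

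All values below are log2 intensities, in which a difference of 1 is a doubling, and a difference is always mutant minus control. Array medians ran from 5.92 to 6.24 and lower quartiles from 5.03 to 5.40. The median difference over all probe sets, 0.17 as deposited, came to 0.04 after quantile normalization and to 0.01 after median centring. The bacterial control transcripts BioB, BioC and BioD, which are added at the hybridization step, read higher on the mutant arrays by 1.81, 1.66 and 1.43. Their part in the results was not tested, and no date of hybridization was at hand. Of the targeted gene Pdss2, 1 probe set (1444085_at) read 6.936, 6.875 and 7.047 in mutants 1 to 3, and controls 1 to 3 gave 7.456, 7.469 and 7.560, a difference of -0.54 (SE 0.18, limma adjusted p = 0.118). Its groups did not overlap. A second Pdss2 probe set (1430723_at) differed by 0.40 (SE 0.27, adjusted p = 0.393) and the last (1459473_at) by 0.35 (SE 0.35, adjusted p = 0.58), both with overlapping groups. The position of these probes in the gene was not at hand, so they do not check the genotype labels, and directions rest on the sample titles.

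Upstream sequences of the genes that differed most, and of their closest copies, are shown first because the results turn on members that lie in the same cluster and share much of their sequence. Each holds the 150 bases before a RefSeq gene start (assembly GRCm38.p6), written from 5′ to 3′ on the gene's own strand. Capitals mark matches to CAAAGTCNA, a motif of the type bound by HNF4, or to TATAAA.
Cyp2c39 first start, plus strand, chr19:39347196-39347345: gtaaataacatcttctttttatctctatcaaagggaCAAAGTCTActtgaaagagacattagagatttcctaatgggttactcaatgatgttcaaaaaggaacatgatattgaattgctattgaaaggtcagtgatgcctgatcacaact
Cyp2c39 second start, plus strand, chr19:39510672-39510821: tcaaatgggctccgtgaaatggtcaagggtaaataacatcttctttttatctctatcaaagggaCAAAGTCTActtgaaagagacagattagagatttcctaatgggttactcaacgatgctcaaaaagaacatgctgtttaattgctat
Cyp2c38, minus strand, chr19:39463076-39463225: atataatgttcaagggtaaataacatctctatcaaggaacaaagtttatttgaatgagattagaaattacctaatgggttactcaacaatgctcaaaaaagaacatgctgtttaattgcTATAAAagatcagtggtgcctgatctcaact
Cyp2c29, plus strand, chr19:39286935-39287084: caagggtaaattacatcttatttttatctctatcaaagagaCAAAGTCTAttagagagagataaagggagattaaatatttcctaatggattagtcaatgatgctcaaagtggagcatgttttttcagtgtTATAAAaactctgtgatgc
Cyp2c37, plus strand, chr19:39992274-39992423: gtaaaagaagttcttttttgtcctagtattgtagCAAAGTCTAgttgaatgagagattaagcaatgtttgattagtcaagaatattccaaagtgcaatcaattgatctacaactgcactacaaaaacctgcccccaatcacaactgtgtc
Cyp2c50, plus strand, chr19:40089529-40089678: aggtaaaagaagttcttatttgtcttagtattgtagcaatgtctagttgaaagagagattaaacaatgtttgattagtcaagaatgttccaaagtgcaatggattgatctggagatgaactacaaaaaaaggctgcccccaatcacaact
RefSeq listed an upstream sequence for 7 of the 9 members, and Cyp2c39 had 2 starts. The Cyp2c37 and Cyp2c50 sequences were identical at 88.5% of aligned positions and the Cyp2c39 starts at 93.5%. Cyp2c38 and the first Cyp2c39 start shared 78.7%, Cyp2c29 and the first Cyp2c39 start 76.7%, and Cyp2c37 and the first Cyp2c39 start 62.7%. Both strands of 250 bases before each start were searched. CAAAGTCNA was matched in Cyp2c29, Cyp2c37, Cyp2c70 and both Cyp2c39 starts, and not in Cyp2c38, Cyp2c50 or Cyp2c55, against 0.898% of 32851 mouse promoters. TATAAA was matched in Cyp2c29, Cyp2c38, Cyp2c55 and Cyp2c70 and in 12.4% of all promoters. The forkhead motif TGTTTAC was matched upstream of Cyp2c38 and of both Cyp2c39 starts, outside the stretches printed above, and in 3.17% of all promoters. A match is a description of the letters in these windows. The motif of HNF4 type was matched in Cyp2c39, which was lower in mutants, and in Cyp2c29, Cyp2c37 and Cyp2c70, whose groups overlapped. Whether any motif bears on the differences was not tested.

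Cyp2c39 was the member that fell in the mutant livers. Its enzyme is known as a hydroxylase of retinoic acid. The probe set (1421363_at) read 5.573, 5.157 and 4.869 in mutants 1 to 3, whereas controls 1 to 3 read 8.636, 10.726 and 10.505. All mutants lay below all controls, and control 1 lay lowest among the controls. Means were 5.20 ± 0.35 in mutants and 9.96 ± 1.15 in controls (SD, n = 3), a difference of -4.76 (SE 0.53, 95% interval -5.98 to -3.53), which is a 27.0-fold higher intensity in controls. In the limma fit over all probe sets the adjusted p was 0.0263. The mutant values were close to the lower quartiles of those arrays, 5.28, 5.40 and 5.34, and their signal over background is unknown. The difference kept its sign without any 1 mouse but did not pass the test without mutant 2 (adjusted p = 0.0911), mutant 3 (adjusted p = 0.0705), control 2 (adjusted p = 0.151) or control 3 (adjusted p = 0.0685). In each of those 4 limma fits 0 probe sets of the whole table passed, with 7526 to 11749 at an unadjusted p under 0.05. Without control 1 it was -5.42 (adjusted p = 0.0117). With 3 mice against 3, an exact two-sided permutation test of a single probe set cannot go below p = 0.1, which Cyp2c39 reached.

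Cyp2c38, the gene next to Cyp2c39 and on the opposite strand, read lower in the mutants as well. Its probe set (1452501_at) gave 8.854, 8.483 and 8.742 in the mutants, numbered in order, against 9.585, 11.308 and 10.804 in the controls. The groups did not overlap, and control 1 again lay nearest the mutants. Means were 8.69 ± 0.19 and 10.57 ± 0.89 (SD, n = 3), a difference of -1.87 (SE 0.41, 95% interval -2.83 to -0.91), or 3.66-fold. The adjusted p over all probe sets was 0.0587, which missed the threshold of 0.05. In the limma fit over 1 probe set per gene, the brightest of each of 18193 genes, it was 0.0371 and passed. Cyp2c38 was also under the threshold among bright probe sets alone (adjusted p = 0.0345) and with age as a covariate (adjusted p = 0.047). The annotated spans of Cyp2c39 and Cyp2c38 overlap in RefSeq, the genes arose by duplication, and neither transcript nor probe sequences were compared here, so how far each probe set reads its neighbour's transcript was not tested.

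Cyp2c37 had a pattern of its own. This P450, a hydroxylase of arachidonic acid, is a known target of the xenobiotic receptor CAR. Its probe set (1419094_at) read 12.021, 12.762 and 12.657 in mutants 1 to 3, but controls 1 to 3 gave 12.556, 5.543 and 5.567. Control 1 lay within the mutant range, and controls 2 and 3 lay 7.001 below control 1 on average. Between controls 2 and 3 the values differed by far less than either differed from control 1. In controls 2 and 3 the signal lay between the lower quartile (5.14 and 5.25) and the median (6.03 and 6.12) of the array. Means were 12.48 ± 0.40 in mutants and 7.89 ± 4.04 in controls (SD, n = 3), a difference of 4.59 (SE 1.69, 95% interval 0.67 to 8.51, adjusted p = 0.146), which did not pass the test over all probe sets. Without control 1 it was 6.93 (SE 0.29, adjusted p = 0.00596), but that fit leaves out the value that made the spread wide. Without any other 1 mouse the difference ran from 3.42 to 4.82, with adjusted p from 0.198 to 0.37, and was not called. The fit without control 1 called 3 probe sets in the whole table, those of Cyp2c37, Cyp2c39 and Pik3ap1, and all 3 genes lie on chromosome 19. Control 1 is labelled as concurrent with mutant 3, a label that no other mouse of the series shares, and its age of 209 days was close to the 213 days of control 2. Within that concurrent pair, mutant 3 minus control 1 was 0.10 for Cyp2c37, -3.77 for Cyp2c39 and -0.84 for Cyp2c38, whereas the means of the other 4 mice differed by 6.84, -5.25 and -2.39. With a term for the pair in the limma fit, an alternative chosen after seeing the data, the adjusted p was 0.087 for Cyp2c37, 0.0223 for Cyp2c39 and 0.0611 for Cyp2c38. What the label covers in the handling of the mice was not stated, and its part in the Cyp2c37 values cannot be told apart from the liver of control 1 itself.

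**Figure D1:**
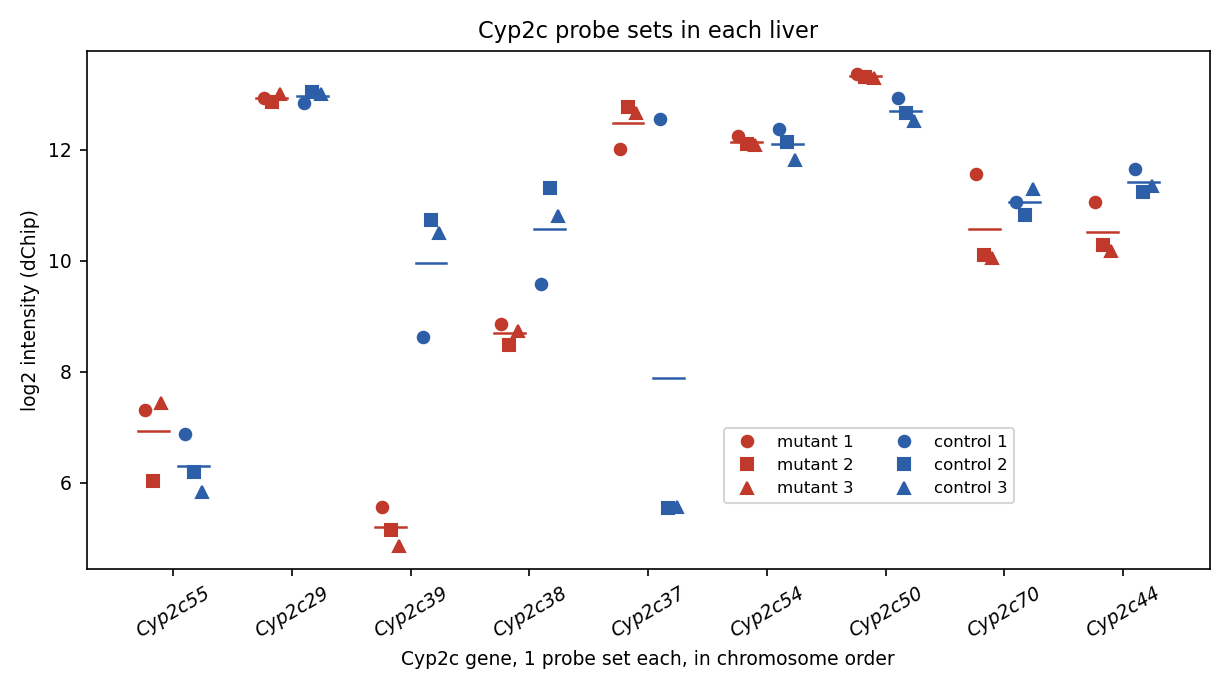
Log2 intensity (y axis) of the 9 Cyp2c probe sets in chromosome order (x axis), with 1 point for each mouse, mutants in red, controls in blue and bars at the mean of 3 mice. Cyp2c39 and Cyp2c38 are lower in all 3 mutants, and for Cyp2c37 control 1 (12.556) lies with the mutants while controls 2 and 3 lie at 5.543 and 5.567; heights of different genes come from different probes and are not comparable.

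The remaining members moved by smaller amounts, and none passed the test over all probe sets. Cyp2c44, an arachidonic acid epoxygenase, read 11.066, 10.288 and 10.183 in the mutants and 11.648, 11.231 and 11.354 in the controls. All mutants lay below all controls, with a difference of -0.90 (SE 0.28, adjusted p = 0.104). Without mutant 1, the mutant nearest the controls, the difference was -1.18 (adjusted p = 0.0285). The probe set name of Cyp2c44 ends in _s_at, the array maker's mark for probes that may match more than 1 transcript, and no other member's name does. Cyp2c50, the close copy of Cyp2c37 and an epoxygenase of linoleic and arachidonic acid, was the member whose mutants all lay above the controls. It read 13.357, 13.314 and 13.296 in the mutants and 12.929, 12.658 and 12.523 in the controls, a difference of 0.62 (SE 0.19, 95% interval 0.17 to 1.07, adjusted p = 0.106). Control 1 did not stand apart in Cyp2c50 as it did in Cyp2c37, lying 0.34 above the mean of the other controls.

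Overlapping groups were found for Cyp2c29, Cyp2c54, Cyp2c55 and Cyp2c70, besides Cyp2c37. Cyp2c29, an abundant arachidonic acid epoxygenase of mouse liver, read 12.934, 12.865 and 12.994 in the mutants and 12.849, 13.037 and 12.995 in the controls. Its difference of -0.03 had a 95% interval of -0.45 to 0.39, so a change of more than about 0.45 either way lay outside the interval, although this gene sits beside Cyp2c39. Cyp2c54, another fatty acid epoxygenase, read 12.246, 12.106 and 12.076 in mutants and 12.368, 12.141 and 11.822 in controls. Its difference was 0.03 (interval -0.46 to 0.52) and turned to -0.11 after quantile normalization and -0.13 after median centring. Both genes thus had values within a narrow range in all 6 livers.

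Cyp2c55, which is known to be induced through the receptors CAR and PXR, read 7.307, 6.030 and 7.444 in mutants and 6.875, 6.197 and 5.831 in controls. Mutant 2 lay among the controls, and the difference was 0.63 (SE 0.43, interval -0.37 to 1.62, adjusted p = 0.403). It was 1.08 without mutant 2, 0.37 without mutant 3 and 0.39 without control 3. Cyp2c70, the enzyme that makes muricholic acids in mouse bile, read 11.571, 10.112 and 10.053 in mutants and 11.050, 10.825 and 11.301 in controls. Mutant 1 was the highest liver and mutants 2 and 3 the lowest, giving a difference of -0.48 (SE 0.41, interval -1.43 to 0.47, adjusted p = 0.509). It was -0.98 without mutant 1 (adjusted p = 0.0505), -0.25 without mutant 2 and -0.22 without mutant 3. The other Cyp2c genes on the array also had overlapping groups, with differences of -0.65 for Cyp2c68 (adjusted p = 0.332) and 0.28 for Cyp2c65 (adjusted p = 0.622).

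As a family, the Cyp2c genes did not move one way. Of 9 members, 5 had a negative and 4 a positive difference, with a median of -0.03 beside 0.17 over all probe sets. The test called 1 of 9 lower and 0 of 9 higher, where 0.746% of all probe sets were called lower and 1.25% higher. Before adjustment 3 of 9 were lower and 2 of 9 higher at p under 0.05, beside 9.54% and 15.7% of all probe sets. Mutants lay wholly below controls for 3 members and wholly above for 1, against 10.7% and 21.2% of all probe sets. In the fit with 1 probe set per gene, 2 members were called lower, and 4.11% of all genes were called lower and 4.92% higher. With so few members these counts are a description, and the intervals of the differences ran from narrow for Cyp2c29 to more than 7 units wide for Cyp2c37.

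**Figure D2:**
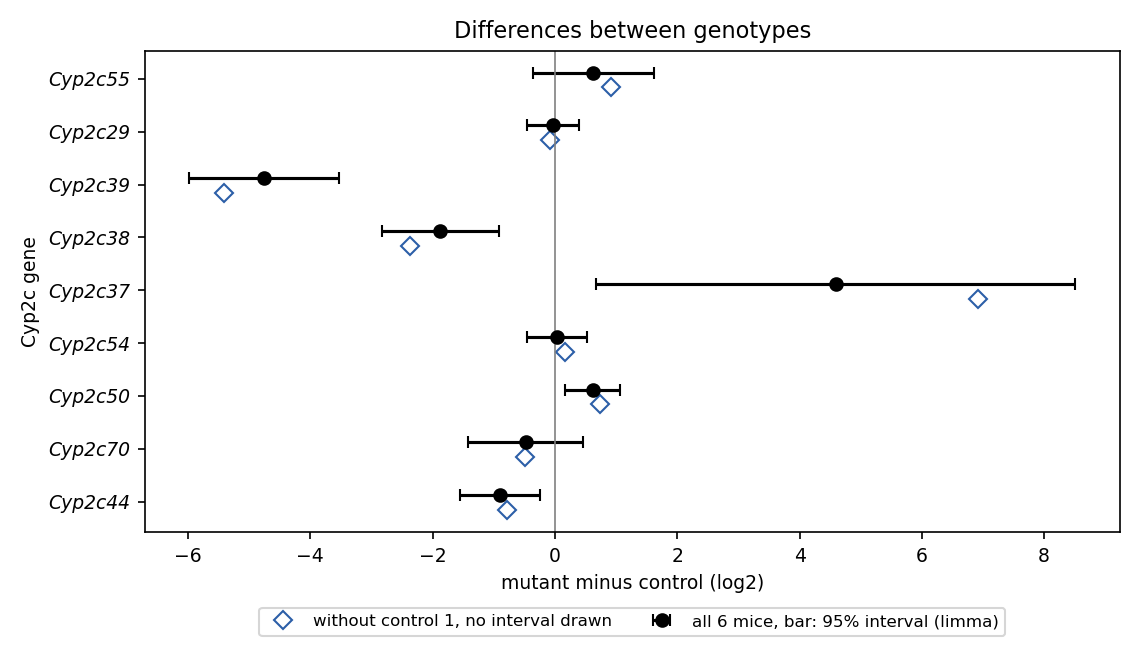
Difference in log2 intensity, mutant minus control (x axis), of each Cyp2c gene in chromosome order (y axis), as filled points with 95% limma intervals from all 6 mice and as open diamonds without control 1. The interval of Cyp2c39 lies furthest below 0, that of Cyp2c37 is the widest (0.67 to 8.51), and leaving out control 1 moves Cyp2c37 from 4.59 to 6.93.

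Among measured genes Cyp2c29, Cyp2c39 and Cyp2c38 follow each other, and Cyp2c37 comes after Cyp2c68. Members of the cluster had unlike values, and the genes around it were described with the fit over 1 probe set per gene. This region was chosen because earlier results of these data named genes of this chromosome among the largest falls. Its counts are therefore a description only. Of the 40 measured genes before Cyp2c55, 6 were lower and 4 higher in mutants, and of the 40 after Cyp2c70, 2 were lower and 4 higher. That is 10% in each direction over the 80 genes, with a median difference of 0.25. The same fit over all genes called 4.11% lower and 4.92% higher, with a median difference of 0.17. The 40 before the cluster held 15% lower calls and the 40 after it 5%.

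The neighbour with the largest difference was Pik3ap1, an adaptor of B cell receptor signalling, which read 5.572, 5.209 and 5.602 in the mutants and 8.109, 9.257 and 8.985 in the controls. Its difference was -3.32 (SE 0.31, adjusted p = 0.012), and as for Cyp2c39 the control nearest the mutants was control 1. A second Pik3ap1 probe set differed by 0.23, so its probe sets did not move together. The RNA Hectd2os read 2.181, 1.519 and 3.329 in mutants and 6.038, 5.980 and 4.154 in controls, a difference of -3.05 (SE 0.60, adjusted p = 0.031). The mutant values lay below the lower quartiles of those arrays, while controls 1 and 2 lay near the medians of theirs, 5.92 and 6.03. Here control 3, not control 1, lay nearest the mutants, below the lower quartile of its array, 5.25.

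Smaller falls were called for Slc16a12, a creatine transporter (-2.03, SE 0.31), Cyp26a1, the main retinoic acid hydroxylase (-1.40, SE 0.35), Hhex, a homeobox factor of liver development (-1.35, SE 0.26), and Lipa, lysosomal acid lipase (-1.11, SE 0.22). The other probe sets of Lipa differed by -1.36 and -1.57. Tbc1d12 (-1.40) and Marveld1 (-0.75) were called lower by their brightest probe set, while the other probe set of Tbc1d12 differed by 0.20 and those of Marveld1 by 0.17, -0.20 and 0.70. Genes called higher were R3hcc1l (2.17), Ankrd1 (1.35), Tnks2 (1.35), Kif11, a mitotic kinesin (1.32), Pyroxd2 (1.24), Golga7b (1.12), Htr7, a serotonin receptor (0.96), and Frat1 (0.87). Further probe sets differed by -0.20 for R3hcc1l, -0.78 and 0.43 for Tnks2, 0.06 and 0.59 for Kif11, 0.59 and 0.43 for Pyroxd2, 0.26 for Golga7b, 0.17 for Htr7 and 0.88 for Ankrd1. Of the 16 called neighbours, 15 stayed called without mutant 1, 1 without mutant 2, 4 without mutant 3, 1 without control 1, 0 without control 2 and 5 without control 3. Calls in both directions thus lay among the neighbours, and Cyp2c39 and Cyp2c37 had larger absolute differences than any of the 80.

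**Figure D3:**
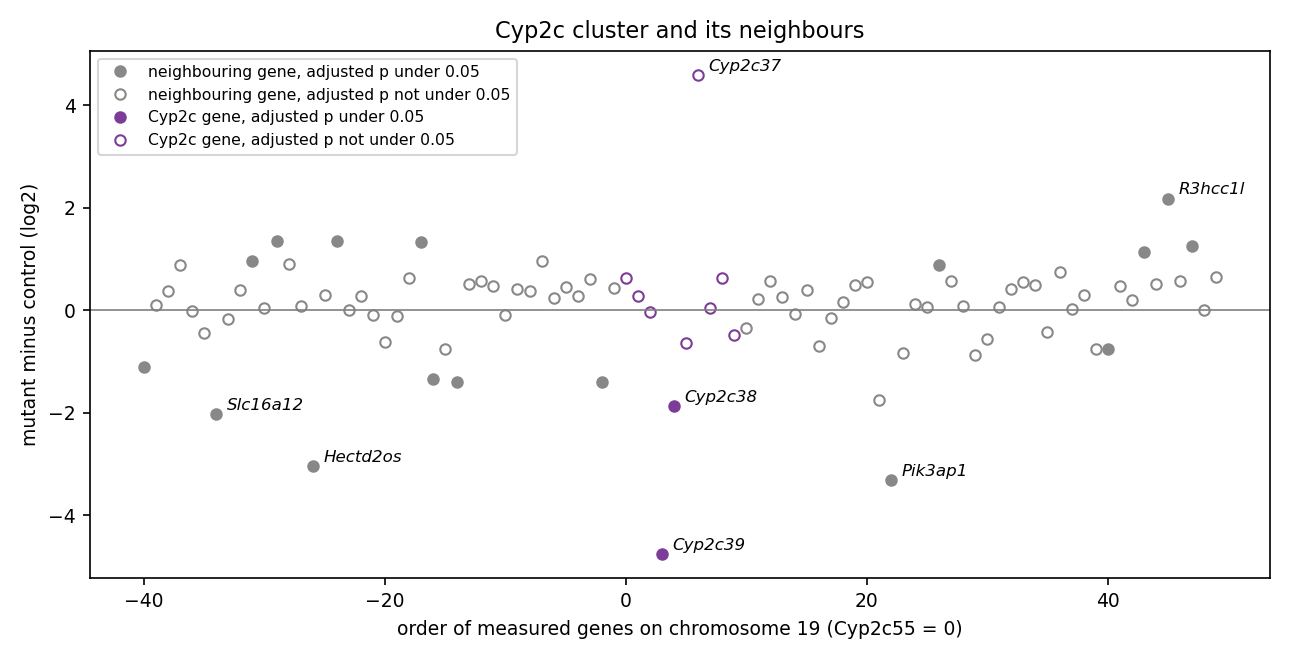
Difference in log2 intensity, mutant minus control (y axis), of the measured genes in their order along chromosome 19 (x axis, Cyp2c55 at 0), with Cyp2c genes in purple, 40 neighbours on each side in grey and filled points for genes called by limma over 1 probe set per gene. Cyp2c39 at -4.76 and Cyp2c37 at 4.59 stand furthest from 0, and called neighbours lie on both sides of it; Cyp2c44 lies further along the chromosome and is not drawn.

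Genes whose profile over the 6 livers lay nearest that of Cyp2c39 were ranked by root-mean-square distance between values centred on their mean, over 18193 genes and 6 mice. The nearest was again Pik3ap1 at a distance of 0.821. It was followed by Dpys, dihydropyrimidinase of pyrimidine breakdown, at 1.15 and with a difference of -2.89, and by Asic5, a bile acid sensitive ion channel, at 1.19. Asic5 read 5.239, 5.573 and 4.966 in mutants and 5.967, 9.027 and 8.257 in controls, a difference of -2.49 that missed the threshold (adjusted p = 0.0586), with control 1 closer to the mutants than to the other controls. Abhd2, a serine hydrolase, lay at 1.27 with a difference of -2.69, and Bet1, a membrane fusion protein of the early secretory pathway, at 1.29 with a difference of -2.48. Apart from Pik3ap1 these genes lie on chromosomes 15, 3, 7 and 6.

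The same ranking for Cyp2c37 was made after its values were seen. Meg3, a noncoding RNA, lay nearest at 2.18, followed by Mndal and Ankrd33b, both at 2.20, Pnisr at 2.41 and Sf3b2 at 2.42, and each of these distances was larger than that of any of the 5 genes ranked for Cyp2c39. In all 5 genes control 1 lay below every mutant, whereas Cyp2c37 of control 1 (12.556) exceeded that of mutant 1 (12.021). By this distance no gene of the 18193 lay as near to Cyp2c37 as Pik3ap1 lay to Cyp2c39. The distance is not scaled for the size of a gene's changes, and Cyp2c37 varied widely. It therefore cannot show whether a gene with smaller changes shared the Cyp2c37 pattern.

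**Figure D4:**
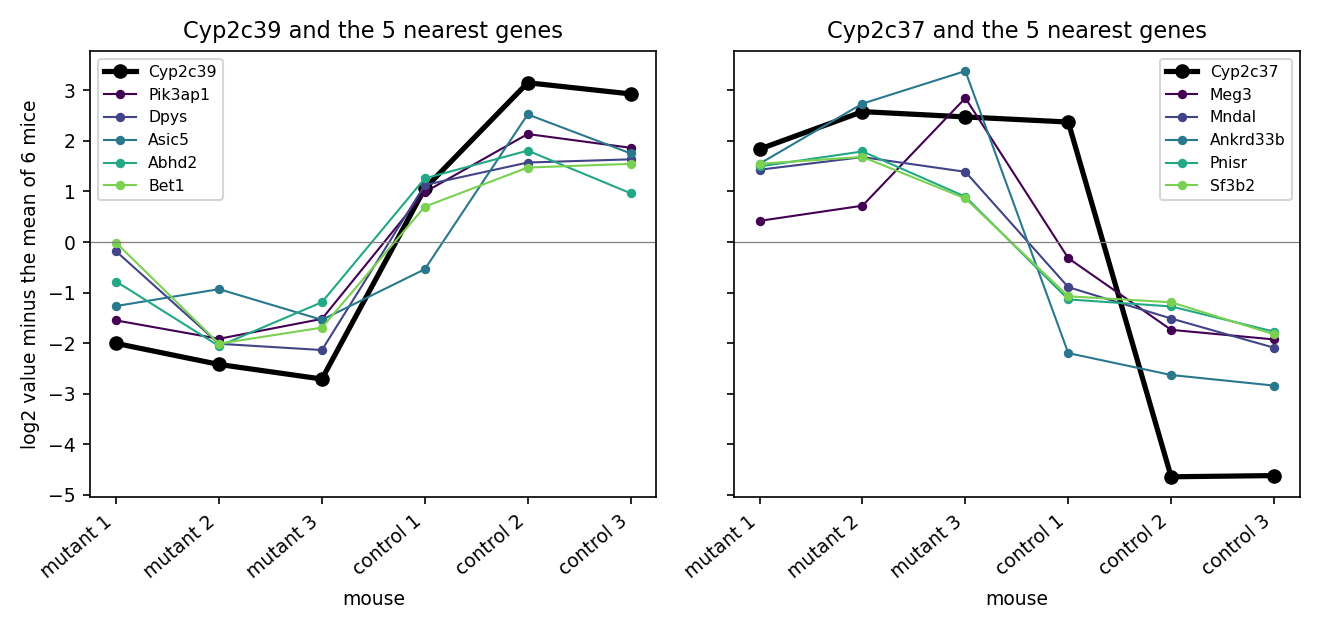
Log2 value minus the mean of 6 mice (y axis) in each mouse (x axis) for Cyp2c39 with its 5 nearest genes on the left and Cyp2c37 with its 5 nearest genes on the right. On the left all lines step up from mutants to controls with control 1 lower than the highest control, and on the right control 1 is high for Cyp2c37 and below the mutants for the other genes.

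Partners and regulators of P450 were read from lists, again with 1 probe set per gene and beside a median of 0.17 over all genes. The same fit called 4.11% of all genes lower and 4.92% higher. The list of electron donors, which pass electrons to P450 or bind it, held 6 genes, of which 5 were measured. P450 reductase was not among the measured genes, so its level is not described here. Of the 5 measured, 1 was lower and 0 higher, with a median of -0.94. Pgrmc2, a haem-binding membrane protein, read 7.953, 6.497 and 6.709 in the mutants and 8.354, 8.701 and 8.762 in the controls, a difference of -1.55 (SE 0.37, adjusted p = 0.0447). A further Pgrmc2 probe set also differed by -1.55. The other 4 missed the threshold, at -1.89 for the cytochrome b5 reductase Cyb5r3 (adjusted p = 0.104), -0.94 for Pgrmc1 (0.0839), -0.85 for the mitochondrial cytochrome b5 Cyb5b (0.0563) and -0.49 for Cyb5a, the microsomal cytochrome b5 (0.147). All mutants lay below all controls in these genes except Cyb5r3, in which mutant 1 (10.895) lay above control 2 (10.806). At an unadjusted p under 0.05 all 5 were lower, beside 12.6% of all genes. The count called was 4 of 5 without mutant 1, which lay nearest the controls in each of the 5, and 0 without any other 1 mouse.

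Of 20 regulators, 1 was lower and 0 higher, with a median of -0.00. At an unadjusted limma p under 0.05, 5 of the 20 were lower and 3 higher, beside 12.6% and 18.4% of all genes. Foxa1, a forkhead factor of the liver, read 6.939, 5.903 and 7.011 in mutants and 8.461, 8.370 and 7.640 in controls, a difference of -1.54 (SE 0.36, adjusted p = 0.0412). The xenobiotic receptor gene Nr1i3, which encodes CAR, differed by 0.78 (adjusted p = 0.108) and Nr1i2, which encodes PXR, by -0.33 (0.438). Hnf4a differed by -0.23 (adjusted p = 0.42). None of these 3, singled out here as known regulators of the family, passed the test.

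Targets of xenobiotic receptors went both ways, with 2 of 21 lower, 2 higher and a median of 0.02. At an unadjusted limma p under 0.05, 6 of the 21 were lower and 2 higher, beside 12.6% and 18.4% of all genes. The conjugating enzyme Sult1d1 differed by -1.53 (its other probe set by -0.26) and the carboxylesterase Ces1g by -1.75, while the canalicular exporter Abcc2 differed by 1.49 and the stress gene Gadd45b by 0.82. Further Gadd45b probe sets differed by 0.915 and 0.573. Of 24 genes of the arachidonic acid pathway 1 was lower and 1 higher, with a median of 0.05. These were Pla2g6, a phospholipase (-1.15, with other probe sets at 0.04 and 0.25), and Cyp4f15, a fatty acid hydroxylase (1.24). Over all genes 4.11% were called lower and 4.92% higher. Before adjustment, 2 of the 24 were lower and 3 higher at a limma p under 0.05.

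Among sex-biased liver genes, which include many P450 genes, 0 of 16 male-biased and 0 of 18 female-biased genes passed the limma test, with medians of -0.13 and 0.07. Pericentral genes, expressed around the central vein where many P450 enzymes are found, had 1 of 23 lower (the transcription factor Tbx3, -0.93) and 1 higher (the glutamate transporter Slc1a2, 1.81), with a median of -0.07. The other probe sets of Tbx3 ran from -1.45 to 0.37 and those of Slc1a2 from 0.02 to 2.32. Periportal genes had 2 of 20 lower, Hsd17b6 (-1.55, other probe set 0.28) and Aldh1b1 (-1.45), and 0 higher, with a median of -0.08. Over all genes, 4.11% were lower and 4.92% higher in the same fit. Before adjustment, 1 male-biased gene was lower and 2 were higher at p under 0.05, and 2 and 3 of the female-biased genes, beside 12.6% and 18.4% of all genes. The same counts were 3 lower and 5 higher for pericentral genes, and 2 lower and 1 higher for periportal genes.

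Cell type markers were read beside the family because bulk liver holds several cell types, and in such samples fewer cells of a type and less RNA per cell cannot be told apart. Of 13 hepatocyte markers 0 passed in either direction, with a median of -0.25. Their mean level was 12.61 to 13.02 in mutants and 12.97 to 13.04 in controls, so bright hepatocyte markers were found in every liver, and 0 were under an unadjusted p of 0.05. Endothelial markers had 4 of 14 higher, Stab2 by 1.82, Ptprb by 1.64 (other probe sets 1.01 and 0.30), Stab1 by 1.39 and Ehd3 by 1.19 (other probe set 0.01). With probe sets averaged, 2 were higher. Kdr (0.17), Cdh5 (-0.16), Clec4g (0.11) and Fcgr2b (-0.50) did not pass, and 0 of the 14 were called lower. The list had a median of 0.61, 7 genes higher at an unadjusted p under 0.05, and mean levels of 8.04 to 8.65 in mutants and 7.54 to 7.96 in controls. Kupffer cell markers had 1 of 12 higher (Clec4f, by 1.17), 3 at an unadjusted p under 0.05, a median of 0.49 and mean levels of 6.92 to 7.41 and 6.35 to 6.79. Bile duct markers had 1 of 8 higher (Krt19, by 1.08), 4 at an unadjusted p under 0.05, a median of 0.47 and mean levels of 6.17 to 6.50 and 5.59 to 6.15. In stellate cell markers and in lymphocyte and blood cell markers 0 of 12 passed in each list, with medians of -0.00 and 0.16 and 2 in each list at an unadjusted p under 0.05. The genes of the Y chromosome with Xist had 0 of 4 called, 2 of them at an unadjusted p under 0.05, and a median of 0.41. For comparison, 4.11% of all genes were called lower and 4.92% higher in the same fit. At an unadjusted p under 0.05 the shares of all genes were 12.6% lower and 18.4% higher. The part of these marker differences in the Cyp2c values was not tested. Of the 18 list genes called, 14 stayed called without mutant 1, 0 without mutant 2, 1 without mutant 3, 0 without control 1, 0 without control 2 and 2 without control 3. With the probe sets of a gene averaged, 7 of the 18 stayed called, and 0 with the replicate number as a block.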

How the data were processed

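Expression was measured on 6 arrays, 1 per liver. Per the study's methods, the authors normalized and summarized probe intensities in dChip with its PM-only model and deposited log2 values. The dChip version and baseline array were not stated, and the methods name an array of another species, although the probe sets carry mouse array names. Signal over background is unknown, and 40 values were exactly 0. The number of arrays limits the precision. After 64 control probe sets were left out, genotypes were compared with limma 3.58.1 in R 4.3.3 (lmFit, eBayes, two-sided, Benjamini-Hochberg, threshold 0.05), over all 45037 probe sets and over the brightest probe set with 1 symbol of each gene. Symbols came from the platform annotation, in which 932 probe sets had several symbols and 9160 none, and RefSeq gave gene order and promoters. The fit over all probe sets was run on simulated arrays with independent noise, which cannot show how it behaves where deviations are shared between mice. Mice are separate animals. All members and Pdss2 probe sets were named, with called list genes (up to 4 each way, all of lists under 8 genes), called neighbours (up to 8 each way) and the 5 profiles nearest Cyp2c39. Members, lists and the neighbour region were chosen with earlier results of these data known. The 16 alternatives covered scaling, probe set choice, brightness, the fit, a replicate block, age, leaving out each mouse and, chosen after seeing the data, a term for the concurrent pair.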

Additional observations from a re-analysis of the deposited data

How the results depend on the processing

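Among the 16 alternatives, Cyp2c39 kept its direction in 16 (-5.42 to -4.37) and was called in 11, Cyp2c38 kept it in 16 and was called in 3, and Cyp2c37 kept it in 16 (3.42 to 6.93) and was called in 1. Against 1 Cyp2c probe set called lower, the count was 2 with 1 probe set per gene, with bright probe sets only and with age as a covariate, and 0 to 2 without each mouse; against 0 called higher it was 0 to 1. Against 897 probe sets called in all, the count was 300 after median centring, 1643 with 1 probe set per gene, 502 with each gene's probe sets averaged, 3050 with bright probe sets only, 1413 with the trend and robust options, 2515 with age, 351 with a term for the concurrent pair (chosen after seeing the data) and 0 to 3840 without each mouse, the highest without mutant 1, with 3 without control 1 and 0 without mutant 2, mutant 3, control 2 or control 3. Against 8 neighbours called lower it was 5 with probe sets averaged and 0 to 13 without each mouse, and against 8 called higher it was 4 after median centring, 2 with probe sets averaged and 0 to 10 without each mouse. With the replicate block these counts were 0 for Cyp2c probe sets called lower, 0 for all probe sets, 0 for neighbours lower and 0 for neighbours higher, and Cyp2c39 had an adjusted p of 0.182, while 7935 probe sets had an unadjusted limma p under 0.05. Deviations of mice with the same number correlated at 0.061, -0.503 and -0.56 for numbers 1, 2 and 3. The numbers were therefore not taken to pair the mice. Mutant 3 and control 1, the pair labelled concurrent, correlated at 0.453, and the labels tie no other mice. Mutant 2 and control 3, which no label ties, correlated more highly, at 0.617. Differences near 0 changed sign for Cyp2c29, which ran from -0.085 to 0.009 without each mouse (0.0037 without mutant 2 and 0.009 without control 2), and for Cyp2c54, which ran from -0.11 to 0.16 without each mouse (-0.019 without mutant 1) and was -0.11 after quantile normalization and -0.13 after median centring. The cause of these changes was not tested. How far the dim mutant values of Cyp2c39 lie above background cannot be given without probe-level signals.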
